A study of Drosophila melanogaster with 27 samples.

Results

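The replication-dependent histone genes of Drosophila melanogaster lie in a tandem array on arm 2L. They were taken here as every gene of the BDGP6 annotation on 2L whose symbol starts with His1:, His2A:, His2B:, His3: or His4:, each with 500 bp on both sides. The rule gave 111 of 18277 annotated genes: 23 His1, 20 His2A, 23 His2B, 23 His3 and 22 His4 genes. The first, His1:CG33801, starts at 21416953 and the last, His3:CG33866, ends at 21541681, so that the array spans 124729 bp.

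The values come from CUT&RUN, in which an antibody tethers a nuclease to chromatin and the released DNA is sequenced, on third-instar larval brains. In fruC-null brains (brat11/Df(2L)Exel8040; fruC-DelC/fruAj96U3) and in control brains (brat11/Df(2L)Exel8040; fruC::myc), H3K27ac, H3K4me3 and H3K27me3 were profiled with 2 samples of 25 brains per genotype and mark. Control brains alone were profiled in 2 replicates of 50 brains per antibody, for FruC::Myc (through its Myc tag) and FruCOM (all Fru isoforms), for Su(H) and Trl, and for Caf-1 and Su(z)12, and for H3K9me3, with 2 samples of 25 brains and 1 deposited peak list. Both genotypes lack brat, which fills the brain with type II neuroblasts at the expense of other cells, and the control carries a Myc tag on the C isoform of Fru. Brains were pooled and the cells were not sorted, so a peak can come from any cell of the brain. Expression was not measured in these libraries, so the cell makeup could not be checked. The neuroblast genes dpn, klu, ase, wor and pnt all had a FruC::Myc peak in both replicates (5 of 5, against 18.7% of all genes). The paper describes type II neuroblasts as lacking ase, so the peak at ase says nothing on their presence. In either replicate, Su(H) had a peak at 2 of the 5 (1.85% of all genes) and Trl at 3 (7.94% of all genes). Of these genes, klu and pnt are far longer than the median gene of 1646 bp, which makes a peak more likely.

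Histones package DNA into nucleosomes. H2A, H2B, H3 and H4 form the core around which DNA is wrapped, and H1 binds the linker DNA between cores. The replication-dependent genes are switched on in S phase, when newly copied DNA needs histones, and are transcribed inside a nuclear compartment called the histone locus body. Their mRNAs end in a conserved stem-loop in place of a poly(A) tail. In the fly, H2A and H2B share a divergent promoter, as do H3 and H4, and H1 has its own. The zinc-finger protein CLAMP is known to bind the GA repeats of the H3–H4 promoter. Trl, also called GAGA factor, recognises GAGAG. Su(z)12 and Caf-1 are subunits of Polycomb repressive complex 2 (PRC2), which methylates H3K27, and Caf-1 also belongs to chromatin assembly factor 1, which places new H3 and H4 on replicated DNA.

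The array held 23 units, and each ran in the order H1, H2B, H2A, H4, H3 with alternating strands. The median unit was 5045 bp long, with a range of 4843 to 14041 bp. In 3 units a pseudogene stood in the H2A place, and in the last unit 1 stood in the H4 place. Most copies were nearly the same sequence. The 23 His3 genes had 2 distinct sequences, of which 1 was shared by 18 genes. The lowest identity to the commonest copy of the family was 99.5% for His1 (12 distinct sequences), 99.7% for His2B and 96.6% for His2A. It was 64.2% for His4, whose genes are annotated at 412 to 528 bp, since bases without a partner counted as differences.

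This limits what a peak at a given copy means. Of all 100-base words read along the annotated array, 2.86% occurred once in the Release 6 assembly, and 79.2% occurred 10 times or more, with a median of 20 copies. Undetermined bases (N) were not left out of the words, and the most frequent word occurred 1100971 times. The share of words occurring 10 times or more can thus include runs of N. In 12 of the 23 units no 100-base word was unique, while unit 3 had the highest share of unique words, 20.1%. The authors aligned reads with bowtie2, and no filter on mapping quality is stated. By default bowtie2 places a read that fits several copies at 1 of them, so counts of units describe where reads were put, and the copies are not replicates. How much of each result below depends on this placement was not tested.

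The H4–H3 promoters are shown because the strongest factor peaks of the array lay there. The stretch from the usual H4 start to the H3 start, found by its sequence in each unit, was 181 to 188 bp long and had 7 distinct sequences over the 23 units. In units 19 to 23 the H4 gene or pseudogene is annotated to within 25 bp of H3, so that most of the stretch lies inside that annotation. All 23 held GAGAG or CTCTC, in a run of 9 to 12 CT repeats. The sequences below run 5′ to 3′ toward the H3 gene on the plus strand of Release 6, and capitals mark the longest run of CT repeats. Unit 2 had the most peaks, unit 3 had none and the largest differences in sequence, unit 7 is 1 of 5 identical units, unit 13 is 1 of 6 identical units, and unit 23 lies at the end of the array.
Unit 2, chr2L:21425006-21425192: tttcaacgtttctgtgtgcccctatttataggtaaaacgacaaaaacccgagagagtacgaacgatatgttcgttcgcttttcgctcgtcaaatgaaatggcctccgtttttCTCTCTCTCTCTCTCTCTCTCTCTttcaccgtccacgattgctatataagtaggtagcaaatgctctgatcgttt
Unit 3, chr2L:21430067-21430254: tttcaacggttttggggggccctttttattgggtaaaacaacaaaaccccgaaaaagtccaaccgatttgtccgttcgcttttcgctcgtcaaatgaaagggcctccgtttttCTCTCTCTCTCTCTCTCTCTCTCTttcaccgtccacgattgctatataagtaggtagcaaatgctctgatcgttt
Unit 7, chr2L:21459266-21459446: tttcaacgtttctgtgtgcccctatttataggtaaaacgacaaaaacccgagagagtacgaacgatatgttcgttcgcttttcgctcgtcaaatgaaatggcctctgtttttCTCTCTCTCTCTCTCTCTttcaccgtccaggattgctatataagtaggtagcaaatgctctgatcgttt
Unit 13, chr2L:21489647-21489829: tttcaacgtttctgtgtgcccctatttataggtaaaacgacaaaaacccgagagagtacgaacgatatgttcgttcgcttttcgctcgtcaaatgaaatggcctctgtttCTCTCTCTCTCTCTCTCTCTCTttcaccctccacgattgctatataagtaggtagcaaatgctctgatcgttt
Unit 23, chr2L:21540970-21541152: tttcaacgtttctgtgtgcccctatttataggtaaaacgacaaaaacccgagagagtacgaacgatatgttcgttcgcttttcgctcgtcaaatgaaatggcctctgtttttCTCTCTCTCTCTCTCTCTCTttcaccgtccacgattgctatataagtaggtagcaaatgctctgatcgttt

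In the promoter window from 250 bp before to 50 bp after each gene start, GAGAG or CTCTC (both strands of 1 motif) was found in 45 of 111 histone genes (40.5%) and in 29.5% of all promoters. These were all 23 His3 and all 22 His4 genes, and no His1, His2A or His2B gene. A match is a description of the sequence and not a binding site.

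The lists themselves differed in size before any histone gene was considered. FruC::Myc replicate 1 held 15563 peaks and replicate 2 held 5174, and the other lists ranged from 513 to 17154. Read totals are in none of the files, so the depth behind a list is unknown and a missing peak cannot be read as missing protein.

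FruC::Myc, the tagged C isoform of the zinc-finger repressor Fruitless, had peaks at most histone genes in replicate 1 and at none in replicate 2. Replicate 1 placed a peak within 500 bp of 82 of 111 histone genes (73.9%), against 48.0% of all genes. Replicate 2 placed none, against 18.7% of all genes. Among other genes no longer than the longest histone gene, the shares were 25.4% in replicate 1 and 8.02% in replicate 2. Since only replicate 1 had array peaks, every FruC::Myc value for the array rests on a single library of 50 brains. By family, replicate 1 had peaks at 16 of 23 His1, 18 of 20 His2A, 15 of 23 His2B, 13 of 23 His3 and 20 of 22 His4 genes.

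These 76 array peaks were weak for their list. Their median fold enrichment was 2.71, against 5.25 over the whole list, and their median −log10 Q-value was 11.1, against 19.97. In all, 40 of the 76 passed a −log10 Q-value of 10 and none passed 100, the level that the study's methods set for Fru peaks. The highest peak value per gene had its largest median in the family of His3 (18.4 over the 13 genes with a peak) and its smallest in His2B (5.15 over 15 genes).

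**Figure D1:**
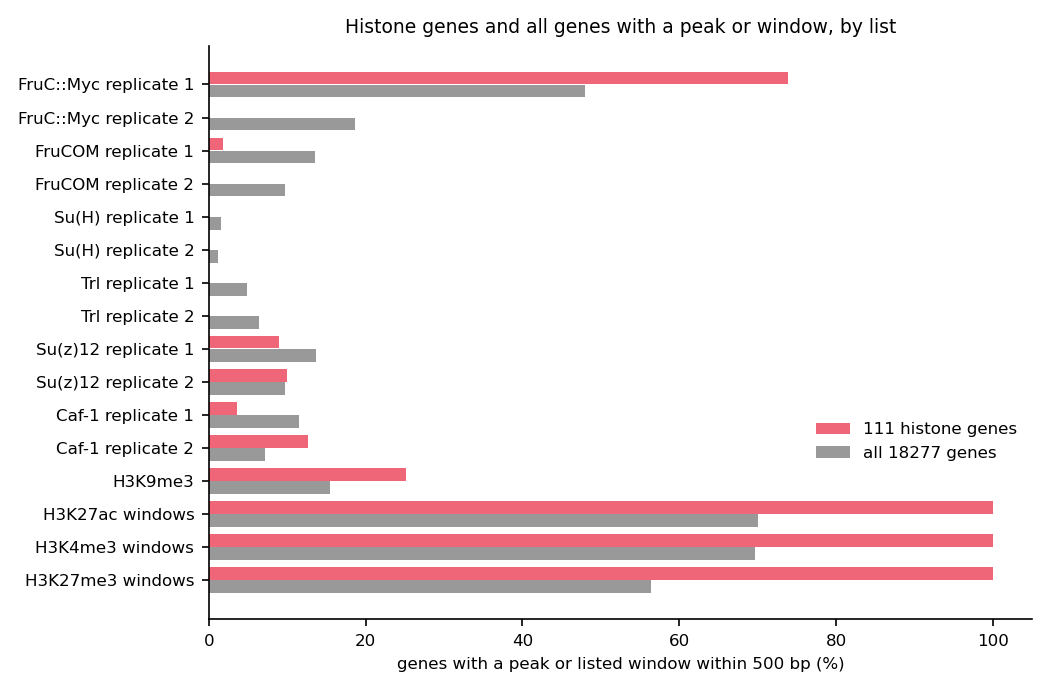
Percent of the 111 histone genes (red) and of all 18277 genes (grey) with a peak or a listed window within 500 bp, for each deposited list. FruC::Myc replicate 1 (73.9% against 48.0%) and replicate 2 (0 against 18.7%) stand on opposite sides of the level over all genes, and all histone genes lie under windows of the 3 marks.

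FruCOM, the antibody against all Fru isoforms, gave 1 array peak in replicate 1, which touched His4:CG31611 and His3:CG31613. That is 2 of 111 histone genes, against 13.6% of all genes. Replicate 2 gave none, against 9.74% of all genes. The single peak had a fold enrichment of 6.07 and a −log10 Q-value of 9.33.

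Neither Su(H), the DNA-binding effector of Notch signalling, nor Trl had a peak at any histone gene. Su(H) lists reached 1.58% of all genes in replicate 1 and 1.11% in replicate 2. Trl lists reached 4.90% and 6.42% of all genes. All H4–H3 promoters carry the motif letters that Trl recognises, but the lists were short and the array is repeated, so nothing about Trl occupancy follows from this.

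Su(z)12 had peaks at 10 of 111 histone genes in replicate 1 (13.7% of all genes) and at 11 in replicate 2 (9.70% of all genes). Either replicate gave 15 histone genes (13.5%), against 15.4% of all genes, and both replicates together gave 6 (5.41%), against 7.98%. Caf-1 had peaks at 4 histone genes in replicate 1 (11.5% of all genes) and at 14 in replicate 2 (7.11% of all genes). Either replicate gave 14 (12.6%), against 12.8% of all genes, and both gave 4 (3.60%), against 5.72%. Among other genes no longer than the longest histone gene, Su(z)12 reached 5.77% in either and 2.56% in both replicates, and Caf-1 reached 5.13% and 1.93%. With either replicate or both, the shares of histone genes were thus near or below those of all genes and above those of other short genes. In replicate 1 alone they were below those of all genes (9.01% for Su(z)12, 3.60% for Caf-1). In replicate 2 alone the share was near that of all genes for Su(z)12 (9.91% against 9.70%) and above it for Caf-1 (12.6% against 7.11%). Histone genes lie close together, so a peak can count for several genes: the 8 array peaks of Caf-1 replicate 2 reached 14 genes. A few of the array peaks ranked high in their lists.

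The tallest of them stood at the H4–H3 promoter of unit 2, between His4:CG31611 and His3:CG31613, where 6 lists had overlapping peaks (chr2L:21425054-21425196). Su(z)12 reached a fold enrichment of 14.1 with a −log10 Q-value of 92.2 in replicate 1, which ranked 108 of 3268 peaks by Q-value. In replicate 2 it reached 10.3-fold with 31.8, rank 160 of 2261. Both libraries therefore put this peak among their strongest. Caf-1 reached 10.5-fold with a −log10 Q-value of 57.3 in replicate 1, rank 138 of 2748. In replicate 2 Caf-1 reached 7.49-fold with 27.5, rank 224 of 1741. FruC::Myc replicate 1 had its highest array −log10 Q-value here, 82.3 with a 6.52-fold enrichment, but this ranked only 1764 of 15563. The summits of Su(z)12, Caf-1 and FruC::Myc lay within a few bases of each other, at 21425134 to 21425137, in the CT-repeat shown for unit 2, and the FruCOM summit lay at 21425096. In this promoter 34.2% of 100-base words were unique, against 2.86% along the array. The promoter of unit 3 had the highest share, 79.8%, and no peak in any list.

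Unit 23, whose H4 place holds a pseudogene, had peaks of 5 lists upstream of His3:CG33866 (chr2L:21540998-21541176). FruC::Myc replicate 1 reached 7.88-fold with a −log10 Q-value of 77.7, its largest fold in the array. Su(z)12 reached 6.18-fold with 15.7 in replicate 1 and 7.12-fold with 11.9 in replicate 2. Caf-1 reached 5.41-fold with 11.3 in replicate 1 and 5.17-fold with 9.28 in replicate 2. All 4 lists of PRC2 subunits thus had a peak here, at a lower height than in unit 2. At unit 15, between His4:CG33883 and His3:CG33842, Su(z)12 had peaks in both replicates (5.20-fold with 13.4, and 7.03-fold with 15.3). FruC::Myc had a peak there in replicate 1 (5.55-fold with 54.0), while Caf-1 had none. Units 15 and 23 have the same H4–H3 promoter sequence. Their peaks there held 0% unique words, with a median of 4 copies. A Caf-1 peak in unit 23 and none in unit 15 thus describes where reads were put. Whether these units differ was not tested.

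**Figure D2:**
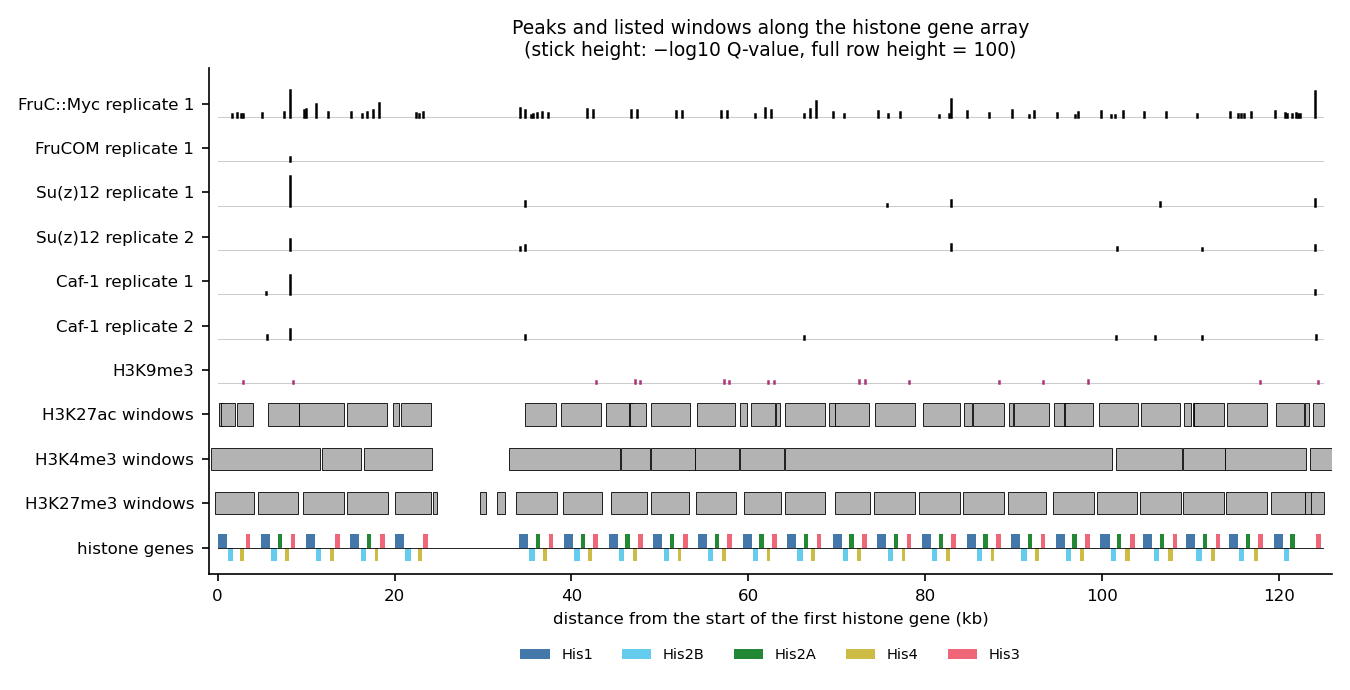
Peaks (sticks at their summits, height by −log10 Q-value, full row height 100) and listed windows (grey boxes) along the array, in kb from the start of the first histone gene, with the genes by family and strand at the bottom. The sticks of 6 lists coincide at unit 2, those of 5 lists at unit 23, and the gap after unit 5 is the spacer of the 14041 bp unit.

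Across units, the FruC::Myc replicate 1 summits at the H4–H3 promoter were compared by the sequence of the copy. Units with an identical sequence can share reads, so agreement among them is not independent and describes where reads were put. In the promoters of units 7 and 13, 0% of 100-base words were unique. A summit lay in the H4–H3 promoter in 12 of 23 units. All 5 units that share the sequence shown for unit 7 had one (units 7 to 11), and so did all 4 units that share the sequence shown for unit 23 (units 4, 12, 15 and 23). None of the 6 units identical to unit 13 had one, nor did the 3 identical units 19 to 21 or unit 3. Only the sequence shared by units 1, 5 and 6 was split, with a summit in 2 of 3. The CT run was 12 repeats long in unit 2, where the −log10 Q-value was highest, and also in units 3 and 19 to 21, where no summit was listed. Whether the length of the run bears on the peaks was not tested.

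**Figure D3:**
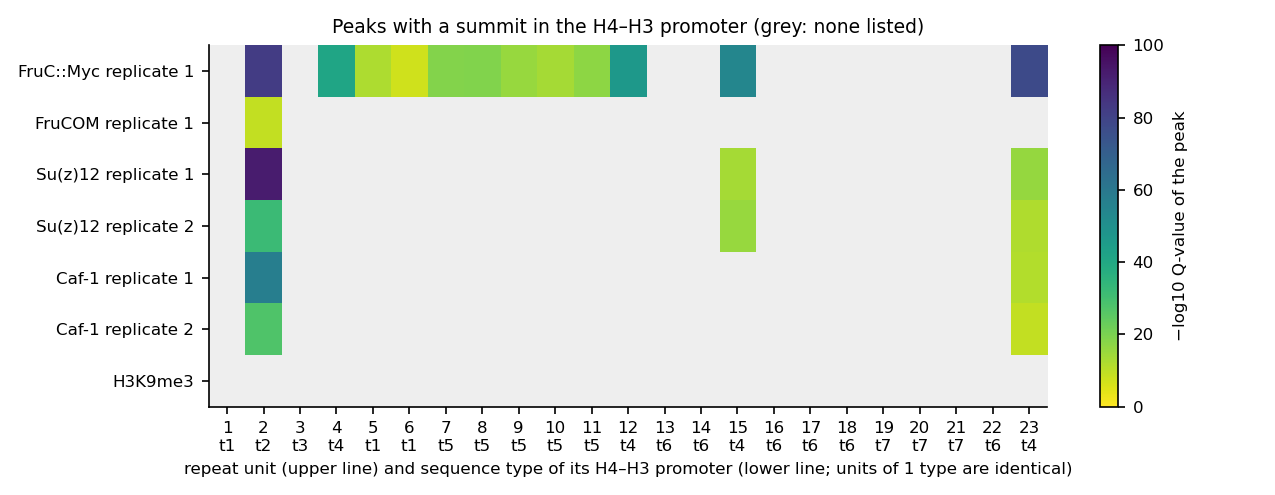
−log10 Q-value of the peak whose summit lies in the H4–H3 promoter, for each list (rows) and repeat unit (columns), with grey where no peak is listed and t1 to t7 marking identical promoter sequences. FruC::Myc replicate 1 has a summit in 12 units, and Su(z)12 and Caf-1 reach their highest values in unit 2.

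Within the repeat, the 76 summits of FruC::Myc replicate 1 kept to certain places. The 3′ gap between H2A and H4, where the genes converge, held 20 summits in 20 different units, which is 26.3% of the summits in 6.89% of the array. The fold enrichment of these peaks ran from 2.52 to 3.78 with a median of 2.86. The share of unique words in them had a median of 0% and was highest in unit 23, at 24.4%. Units can share reads here, so the similar heights and the count of units describe where reads were put. Whether the copies differ at this place was not tested. The summits of these gap peaks lay a median of 174 bp past the H2A end (range 3 to 191 bp). The strongest gap peak, in unit 11, is shown with the 11 bases around its summit in capitals. It is shown because summits were placed in the gap in more units than in the promoter.
Unit 11 H2A–H4 gap, chr2L:21478798-21478918: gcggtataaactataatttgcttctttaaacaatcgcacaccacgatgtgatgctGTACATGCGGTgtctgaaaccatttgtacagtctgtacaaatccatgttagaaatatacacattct
A stem-loop (a 6-base stem around a 4-base loop that opens with TT, 16 bases in all, starting with GG) was searched for within 150 bp of each gene end. All 23 His3 and all 22 His4 genes matched with the same letters, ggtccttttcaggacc, 4 bp past the annotated end in His3 and 6 to 51 bp past it in His4. In 22 of 23 His2B genes the match was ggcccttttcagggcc, and in His1 and His2A genes these letters were not in the window. The summits in the gap lay 175 to 361 bp from the annotated H4 end, away from the stem-loop of H4. No stem-loop of H2A was found, so the distance to it was not measured.

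The H1 gene, whose product binds linker DNA, held 14 FruC::Myc summits, 13 of them within 200 bp of the H1 start. H3 gene bodies held none, and the H3–H1 spacer, 27.8% of the array with the long spacer of unit 5 included, held 1. Of 13 summits in H2B, 4 lay within 200 bp of the gene's start, as did 5 of 6 in H2A.

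Su(z)12 and Caf-1 had their other array peaks in few places. In unit 6 the body of His1:CG33813 had peaks of 4 lists (chr2L:21451503-21451811), with folds of 4.79 and 6.91 for Su(z)12 in replicates 1 and 2 and 4.42 for Caf-1 replicate 2. In unit 2 the H1 body had a Caf-1 peak in both replicates, at 3.20-fold and 4.10-fold. These Caf-1 peaks held 0% unique words, with a median of 2 copies, as did the Su(z)12 peaks in the body of His1:CG33813. Reads can be shared by copies here, so the unit of each peak describes where reads were put. Whether units 2 and 6 differ in the H1 body was not tested. The divergent H2B–H2A promoter had Su(z)12 replicate 2 and Caf-1 replicate 2 peaks together in units 19 and 21, of 3.15 to 3.90-fold. At this promoter the only listed peak of Su(z)12 replicate 1 was in unit 20 (4.06-fold with 8.56), and Caf-1 replicate 2 had another in unit 12 (3.65-fold). The peaks at this promoter in units 19, 20 and 21 held 0% unique words, with a median of 3 copies. The unit listed for each replicate thus describes where reads were put. Whether the Su(z)12 replicates differ in place here was not tested. Unit 19 holds His2A:CG33853, the His2A gene with peaks in the most lists (3), and His2B:CG33902 of unit 6 shared the highest number in its family, also 3, with His2B:CG33876 of unit 19 and His2B:CG33872 of unit 21. Over the whole array, peaks merged to 96 regions, of which 85 belonged to 1 list. His4:CG31611 and His3:CG31613 had peaks in 7 of 13 lists, and 19 histone genes had none: 7 His1, 7 His2B, 4 His3 and 1 His4. The share of all genes without a peak in any list was not counted.

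H3K9me3, the mark of constitutive heterochromatin, had weak peaks that kept to the genes for H3 and H4. Its list touched 28 of 111 histone genes (25.2%), against 15.4% of all genes and 9.67% of other short genes. They were 13 of 23 His3, 12 of 22 His4 and 3 of 20 His2A genes, and no His1 or His2B gene. All 17 summits lay inside gene bodies, 12 in H3 and 5 in H4, at 179 to 346 bp from the start of the gene. Fold enrichment ran from 1.61 to 2.36, against a median of 4.19 over the list, and the highest −log10 Q-value was 7.19, at the peak that His2A:CG33826 reached through its flank. None of the 17 peaks held a unique 100-base word, and their median word occurred 23 times, the number of H3 genes in the array.

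**Figure D4:**
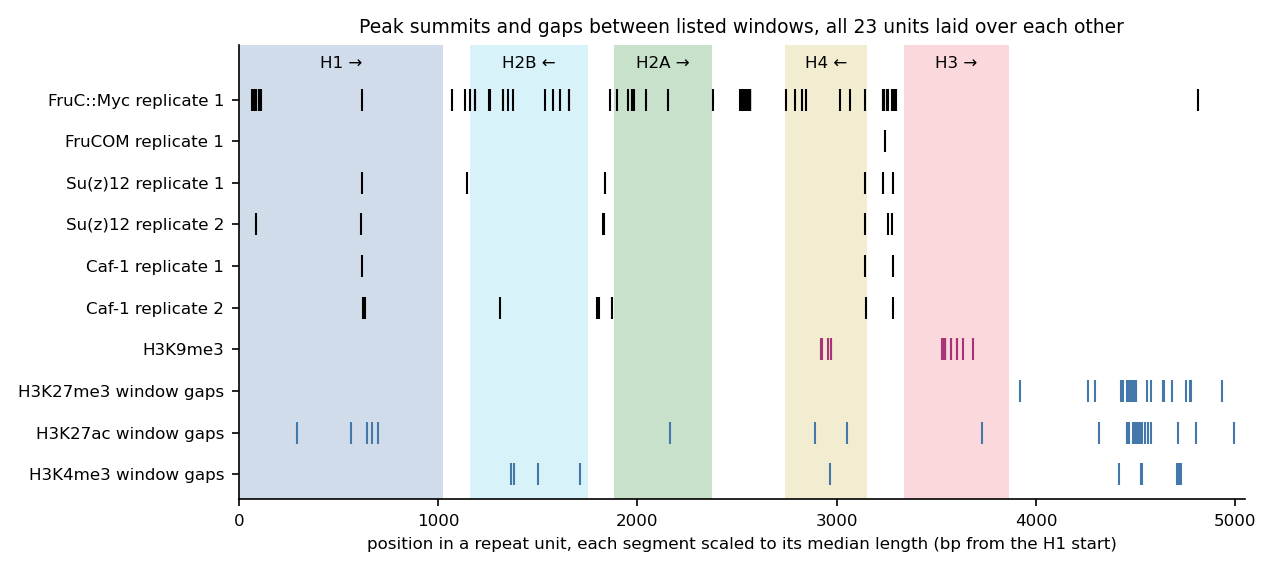
Peak summits (black for factors, purple for H3K9me3) and midpoints of the gaps between listed windows (blue) from all 23 units, placed along 1 repeat unit whose segments are scaled to their median lengths in bp, with the genes shaded and their direction marked. H3K9me3 summits lie in H3 and H4, FruC::Myc summits crowd at the H1 start, in the H2A–H4 gap and in the H4–H3 promoter, and the midpoints of all 25 H3K27me3 gaps lie in the H3–H1 spacer. Summits at the right edge of the H4 box include those over the pseudogene of unit 23.

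For H3K27ac (a mark of active promoters and enhancers), H3K4me3 (of active promoters) and H3K27me3 (of Polycomb repression), the deposited tables list windows from the comparison of fruC-null with control brains. A window comes from samples of both genotypes together. The tables' own values of change were not used, so a listed window is read here neither as presence of the mark nor as a change, and only its position and length are described. All 111 histone genes lay under a window of each mark, against 70.1% of all genes for H3K27ac, 69.7% for H3K4me3 and 56.4% for H3K27me3. Whole gene bodies lay under windows in 100 histone genes for H3K27ac (12.0% of all genes), 107 for H3K4me3 (17.0% of all genes) and 108 for H3K27me3 (7.05% of all genes). Histone genes are short, between 412 and 1023 bp against a median of 1646 bp, which makes full cover easier. Among other genes no longer than the longest histone gene, 21.5%, 26.5% and 15.2% were wholly covered for H3K27ac, H3K4me3 and H3K27me3.

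The H3K27me3 windows repeated with the period of the genes. Of 28 windows touching the array, 22 were 4 kb or longer, and each of these was centred in a different unit. Their median length over all 28 was 4450 bp, against 800 bp over the table, and in 19 of 23 units a single window held all 5 gene places. All 25 gaps between them were centred in the H3–H1 spacer, 47.3% of which was covered. The longest gap, 4850 bp, lay in the spacer of unit 5, the unit of 14041 bp, against a median gap of 450 bp. H2B, H2A, H4 and H3 genes and the gaps between these genes were covered in full, and H1 genes to 97.1%. The longest window, 4700 bp, ran over His1:CG33840 to His3:CG33842.

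H3K27ac windows were more broken. There were 41, with a median of 2900 bp against 800 bp over the table, and 22 of their 31 gaps were centred in the H3–H1 spacer, of which 38.2% was covered. Another 5 gaps were centred in H1. The longest gap, 10650 bp, was centred in the spacer of unit 5, the unit of 14041 bp, against a median gap of 500 bp. The longest window, 5000 bp, covered the unit from His1:CG33804 to His3:CG33806.

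H3K4me3 windows had the largest median length of the 3 marks. There were 13, with a median of 5000 bp against 1000 bp over the table, and 7 of them touched histone genes of more than 1 unit. Of their 12 gaps, 7 were centred in the H3–H1 spacer, of which 74.1% was covered. The longest gap, 8700 bp, lay in the spacer of unit 5, the unit of 14041 bp, against a median gap of 75 bp. The uncovered part of the spacer thus rests largely on that unit. The longest window, 37000 bp from His1:CG33831 to His2B:CG33876, was the longest of all 23033 H3K4me3 windows and held 36 histone genes whole. Windows covered 79.6% of the array for H3K27ac, 91.6% for H3K4me3 and 84.8% for H3K27me3. Windows of the 3 marks thus lay over the same genes in the same repeated sequence, and which copies or cells carried which mark cannot be told apart here.

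**Figure D5:**
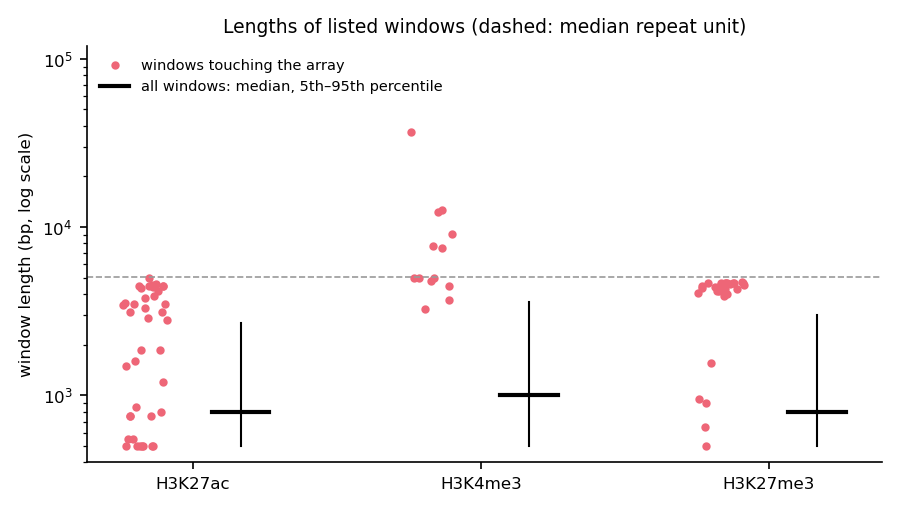
Lengths of the windows that touch the array (red points, 1 per window) beside the median and the 5th to 95th percentile of all windows of the table (black), on a log scale in bp, with the median repeat unit of 5045 bp dashed. H3K27me3 windows gather just under the unit length, and the 37000 bp H3K4me3 window stands above all others.

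Some histone variant genes outside the array had FruC::Myc peaks in both replicates. Of 6 variant genes, which are transcribed outside S phase as well or in special cells, 4 had a FruC::Myc peak in replicate 1 and 2 of them, His2Av and His3.3B, in replicate 2 also, while BigH1 and cid had none. His3.3B, which encodes the H3.3 variant, had −log10 Q-values of 65.9 and 15.3 in replicates 1 and 2. His2Av, which encodes the H2A.Z homologue, had 34.3 and 4.58. None of the 6 had a Caf-1 peak, and 1, His2Av, had a Su(z)12 peak, in replicate 2 with 2.28.

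Of 12 genes for the histone locus body and for histone mRNA processing, 7 had a FruC::Myc peak and 3 had one in both replicates: Clamp, CycE and Cdk2. Clamp, whose product binds the GA repeats of the array, had −log10 Q-values of 120.9 and 6.69 for FruC::Myc, and of 11.3 and 11.4 for Caf-1. CycE and Cdk2 encode the S-phase kinase that acts on the locus body, and CycE had FruC::Myc values of 111.0 and 27.3. The scaffold gene mxc had 20.6 in replicate 1 alone, and Slbp, whose product binds the stem-loop, had 6.28 in replicate 1 alone. Of 8 genes for histone chaperones, 7 had a FruC::Myc peak and 4 had one in both replicates. The gene for the large subunit of chromatin assembly factor 1 reached 223.8 in replicate 1 and 17.1 in replicate 2. These counts stand beside 48.0% of all genes with a peak in replicate 1 and 18.7% in replicate 2. FruC::Myc replicate 2 thus held peaks at some single-copy genes of this pathway and at none of the array. It also had none at His3.3A, FLASH and asf1, whose replicate 1 −log10 Q-values were 72.1, 56.5 and 54.3. Why replicate 2 had no array peak was not tested.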

How the data were processed

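CUT&RUN libraries of 27 samples were grouped by their labels, and the IgG sample has no file used here. Reads had been trimmed by the authors (cutadapt) and mapped to BDGP6 by bowtie2 with local alignment, and factor libraries were limited to fragments below 120 bp. Tool versions are not given in the sources used here. MACS2 peaks were called by the authors on each replicate, and H3K9me3 was deposited as 1 list whose pooling is not stated. The deposited lists hold a score, a fold enrichment (a ratio) and, as −log10, the P- and Q-value of each peak. The deposited diffReps tables hold window positions and lengths from a 500 bp sliding window over fruC-null and control samples, with the authors' log2 fold changes, adjusted p-values and calls of direction, which were not used. Columns of samples of other series numbered 0.

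Genes came from Ensembl release 115 and sequence from RefSeq Release 6, which share coordinates: 0 listed positions lay beyond a chromosome end. A gene had a peak where at least 1 bp of any deposited peak fell within 500 bp of its body. Exact 50- and 100-base words were counted on both strands over 1870 sequences. No test was run, because each antibody had 2 libraries and the array is a single locus. The interval code was tested on simulated data. Named genes were, by rule, the member under the highest peak of each antibody, the member of each family with peaks in the most lists, the first and last member, members under the longest windows, every member of a list of 5 or fewer, and 3 lists of pathway genes. Members and lists were chosen with earlier results of these data known. Python 3.11.15, NumPy 2.4.6, Biopython 1.88 and Matplotlib 3.10.9 were used. The ENCODE blacklist was not used here.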

Additional observations from a re-analysis of the deposited data

How the results depend on the processing

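For the 8 results above 0, 32 of 58 alternative counts stayed within 1.5 times the reported count. Apart from the choice of replicates, the share of all genes was not counted under the alternative settings. Whether the differences from all genes hold under them is therefore unknown. Without the 500 bp flank, peaks touched 37 histone genes in place of 82 for FruC::Myc, 0 in place of 2 for FruCOM, 5 in place of 15 for Su(z)12, 8 in place of 14 for Caf-1 and 17 in place of 28 for H3K9me3. With a 1000 bp flank, Su(z)12 reached 24 and Caf-1 reached 23. With a −log10 Q-value above 10, FruCOM kept 0, Su(z)12 7, Caf-1 3 and H3K9me3 0, and above 100 every list kept 0 of FruC::Myc, FruCOM, Su(z)12, Caf-1 and H3K9me3. A peak in both replicates left 0 for FruC::Myc and FruCOM, 6 for Su(z)12 and 4 for Caf-1. Leaving out 1 replicate gave 0 to 82 for FruC::Myc (0 without replicate 1), 0 to 2 for FruCOM (0 without replicate 1), 10 to 11 for Su(z)12 and 4 to 14 for Caf-1 (4 without replicate 2). With the window centre required within 500 bp of the gene, H3K27ac windows reached 60 genes, H3K4me3 18 and H3K27me3 45 in place of 111, which follows from windows longer than the genes. Removing H3K9me3 regions could not bear on these counts, since 0 array peaks of H3K9me3 passed 100. Su(H) and Trl were at 0, which stricter settings cannot change, and remained at 0 with a 1000 bp flank. No paired analysis was possible because these counts come from no test. Depth is unknown, and reads shared by the copies limit every statement on a single unit.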

Other observations

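The array is flanked by 4 annotated histone pseudogenes within 20 kb, His-Psi:CR31616, His-Psi:CR31615, His-Psi:CR31754 and His-Psi:CR31614. Of these, 3 had a FruC::Myc peak in replicate 1 and none had one in replicate 2, as in the array. His-Psi:CR31614 had −log10 Q-values of 23.5 for FruC::Myc replicate 1, 8.39 for Su(z)12 replicate 1 and 5.87 for Caf-1 replicate 1. None of the 4 had an H3K9me3 peak. Among the chaperone genes, Nasp, whose product binds free H3–H4, had Caf-1 peaks with −log10 Q-values of 15.8 and 22.9 in replicates 1 and 2.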
